A study of Mus musculus with 10 samples.

Results

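Which transcripts of a gene were used was compared between naive B cells of the mouse and plasma cells, their descendants that secrete antibody. A gene entered the comparison when it had 2 or more transcripts in the deposited tables and summed estimated counts of 200 or more in both libraries, which 6083 of 26599 genes did. These genes had 24524 of the 61112 transcripts. All cells were wild type and of the strain C57BL/6. The naive B cells were CD23+ IgD+ cells sorted from spleen. The labels of the plasma cells conflict: the source names sorted cells activated in culture, the growth protocol gives a culture of splenocytes selected with beads against CD23, and the protocol for extraction gives CD138+ cells sorted from bone marrow that lacked B220, IgD, CD4, CD8, Gr1 and Ter119. The RNA source of the plasma library is therefore not known beyond these labels, and ages were not given. RNA-seq of poly(A) RNA was made with 1 library per cell type, so no difference below has a replicate check and none was tested. The series holds 10 samples in all.

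A gene can give several transcripts through different promoters, alternative splicing or alternative cleavage and polyadenylation, and these can differ in coding sequence or only in their untranslated regions (UTRs). In B cell differentiation the best-known case is the immunoglobulin heavy chain, whose RNA processing passes from the membrane to the secreted form. Transcripts with a premature stop codon can be removed by nonsense-mediated decay, and SR and hnRNP splicing factors are known to limit their own expression through such transcripts.

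The immunoglobulin case could not be followed here. Ighm and Ighg1 have 1 transcript each in the tables, and Ighd, Igha, Ighg2b and Ighg3 were not found there by these symbols. Ell2, the elongation factor known for its part in immunoglobulin RNA processing, Bcl6 and Ikzf3 also have 1 transcript each. Bcl2l1 was left out with 186 naive estimated counts, and Hnrpll, a splicing regulator of plasma cells, with 46. At the edge of the rule, the lower count of Fes was 200.0 and that of Adarb2, left out, was 199.8.

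The unit of all comparisons is the share of a gene's TPM (a level corrected for transcript length and library size) held by 1 transcript, in percent, and differences are in percentage points, plasma minus naive. A share does not depend on the scale of the library. Where a pair of shares follows a transcript or gene, the naive B cell share comes first. Intervals in brackets are 95% exact Clopper-Pearson intervals. They cover counting error only, since the reads carried no molecular identifiers, and not the uncertainty of dividing reads among overlapping transcripts. The libraries held 37.0 M and 43.5 M estimated counts in naive B and plasma cells, and compared genes held 57.5% and 34.3% of the TPM. Gene levels below are given in TPM without centring. The median compared gene had a log2 ratio of -1.20, plasma over naive. A gene with lower TPM in plasma can therefore lie above the median gene. Naive B markers summed to 4140 TPM in the naive and 301 TPM in the plasma library, and all 5 of 6 markers found were lower in plasma. Plasma markers summed to 1019 and 7995 TPM, with Sdc1, the gene of CD138, lower in plasma at 11.1 and 5.38 TPM. Markers of other cells were higher in the naive library: T cell markers summed to 66.5 and 3.62 TPM (6 of 6 lower in plasma), myeloid markers to 144 and 1.97 TPM (6 of 6 lower) and erythroid markers to 66.8 and 0.0142 TPM (5 of 5 lower, 4 of them at 0). Their part in the differences below was not tested, and in bulk RNA fewer cells of a type and less RNA per cell cannot be told apart.

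The sequences that follow are coding stretches that 1 transcript of a gene has and another lacks, for a few genes. They were taken from GENCODE M21 transcripts on GRCm38 by transcript ID and need not be the whole coding difference. The M21 transcripts of Pkm2 and Irf4, and Fcgr2b-001, Ndufa7-001 and Txndc5-001, have other total lengths than the deposited ones. The coding lengths, with the stop codon, are the same. Pkm2 (now Pkm), pyruvate kinase of glycolysis, has a pair of mutually exclusive exons, the M1 type in Pkm2-202 and the M2 type in Pkm2-201. They lie at chr9:59675029-59675195 and chr9:59675568-59675734 on the plus strand, are 167 bases each and differ at 64 bases, shown in capitals.
Pkm2-202 exon: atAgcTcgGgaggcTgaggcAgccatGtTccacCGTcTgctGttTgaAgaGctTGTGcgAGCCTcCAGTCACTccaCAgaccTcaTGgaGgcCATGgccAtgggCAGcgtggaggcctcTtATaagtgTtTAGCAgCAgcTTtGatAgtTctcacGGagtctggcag
Pkm2-201 exon: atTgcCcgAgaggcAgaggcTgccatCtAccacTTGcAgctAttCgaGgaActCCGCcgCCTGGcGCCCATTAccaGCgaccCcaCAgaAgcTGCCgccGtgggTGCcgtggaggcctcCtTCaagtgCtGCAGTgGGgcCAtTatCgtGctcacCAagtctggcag

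Fcgr2b, the inhibitory Fc receptor of B cells, has a 141-base exon in Fcgr2b-001 that Fcgr2b-003 lacks (chr1:170963325-170963465, minus strand). Prdm1, the gene of the plasma cell regulator Blimp-1, has a 79-base exon in Prdm1-001 that Prdm1-002 lacks (chr10:44456981-44457059, minus strand). Ndufa7, a subunit of respiratory complex I, has a 50-base exon in Ndufa7-001 that Ndufa7-006 lacks (chr17:33825601-33825650, plus strand). In the next 3 lines the exon is in capitals, with 15 bases of the transcript on each side.
Fcgr2b-001 exon: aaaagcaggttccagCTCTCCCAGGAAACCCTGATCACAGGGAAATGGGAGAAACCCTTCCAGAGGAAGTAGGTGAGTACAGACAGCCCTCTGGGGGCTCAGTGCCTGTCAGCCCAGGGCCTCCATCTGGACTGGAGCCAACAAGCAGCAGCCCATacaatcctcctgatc
Prdm1-001 exon: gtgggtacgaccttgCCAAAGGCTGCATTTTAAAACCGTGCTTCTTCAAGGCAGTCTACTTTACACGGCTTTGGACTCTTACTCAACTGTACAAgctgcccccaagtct
Ndufa7-001 exon: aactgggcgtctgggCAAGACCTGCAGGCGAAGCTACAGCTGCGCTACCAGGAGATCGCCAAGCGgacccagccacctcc

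Txndc5, a protein disulfide isomerase of the endoplasmic reticulum, has a first exon in Txndc5-001 with 221 coding bases that Txndc5-003 lacks (chr13:38528188-38528408, minus strand, start codon in capitals). Irf4, a regulator of plasma cell formation, has 3 bases in Irf4-001 that Irf4-002 lacks (chr13:30753445-30753447, plus strand, in capitals).
Txndc5-001 first exon, coding part: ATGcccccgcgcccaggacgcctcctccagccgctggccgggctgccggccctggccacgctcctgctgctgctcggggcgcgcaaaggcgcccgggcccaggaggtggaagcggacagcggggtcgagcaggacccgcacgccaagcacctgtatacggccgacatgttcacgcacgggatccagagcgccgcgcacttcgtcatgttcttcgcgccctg
Irf4-001 exon start: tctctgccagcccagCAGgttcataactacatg

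In most compared genes no transcript share differed by 25 points. In 759 of 6083 genes (12.5%) at least 1 transcript differed in share by 25 points or more, in 114 (1.87%) by 50 points or more, and in 2867 by 10 points or more. The leading transcript, the one with the largest share, was another one in 857 genes (14.1%). Both held in 426 genes, whereas 333 genes past 25 points kept their leading transcript and 431 genes with another leading transcript stayed under 25 points. In 743 genes (12.2%) no share differed by as much as 1 point. The distance between the profiles of a gene, the sum of its absolute share differences divided by 2, had a median of 10.1 points (quartiles 3.74 and 18.9). The intervals of the transcript that differed most did not overlap in any of the 759 genes. That largely follows from the rules of 25 points and 200 counts, so it adds no support to these calls.

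**Figure D1:**
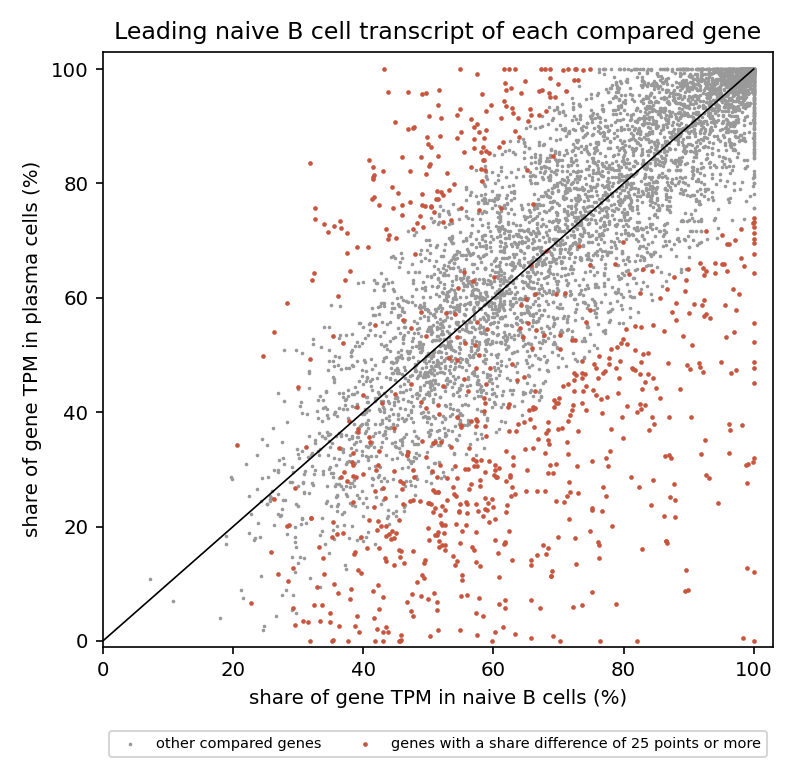
Each of the 6083 compared genes is 1 point, with the share of gene TPM (%) held by its leading naive B cell transcript, naive B cells on the x axis and plasma cells on the y axis. The 759 genes with a share difference of 25 points or more in any of their transcripts are red, and the line marks equal shares.

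Differences were more common where counts were low or transcripts many. With the genes in 5 equal groups by the lower of both gene counts, 21.1%, 14.1%, 11.4%, 7.81% and 7.97% were past 25 points, from the group with the lowest counts to that with the highest. Among genes with 2, 3, 4 and 5 or more transcripts the shares of genes were 6.88%, 11.9%, 13.7% and 18.5%. The direction of the gene itself made less of a difference. Of 997 genes at least 2-fold higher in plasma after centring, 13.1% were past 25 points, of 813 at least 2-fold lower 13.8%, and of the 4273 between 12.1%.

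The transcript that gained most share in plasma (the gaining transcript) and the one that lost most (the losing transcript) usually differed in coding sequence. Among 741 of the 759 genes in which both were coding, the coding lengths differed in 78.3%: the gaining transcript had the longer one in 322 genes and the shorter one in 258. Among genes under 25 points the coding lengths differed in 85.9%. In 406 of the 759 genes both transcripts could be placed on GRCm38. Their first bases lay more than 50 bases apart in 245 (60.3%) and their last bases in 194 (47.8%). Among genes under 25 points with both transcripts placed, both shares were higher, at 68.3% and 69.0% of 2670.

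Prdm1 had the largest shift among the 26 compared genes of the list of plasma cell regulators and secretory genes, which does not include Txndc5, described next. The gene was at 2.29 TPM (naive B) and 249 TPM (plasma). Prdm1-001 held 87.8% in naive B cells (82.6 to 92.2%) and 21.6% in plasma cells (21.2 to 22.0%). Prdm1-002, which lacks the 79-base exon shown above and has a 3′ UTR of 1374 rather than 2490 bases, held 12.2% in naive B cells (7.84 to 17.4%) and 78.4% in plasma cells (78.0 to 78.8%). The leading transcript thus differed between the libraries, and the naive shares rest on 244 estimated counts. Their coding sequences are 2571 and 2472 bases long. Prdm1-001 thus has 99 more coding bases, so the 79-base exon is not the whole coding difference.

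Txndc5 was at 226 TPM (naive B) and 751 TPM (plasma). Txndc5-003 held 82.9% in naive B cells (82.2 to 83.5%) and 16.0% in plasma cells (15.8 to 16.3%). Txndc5-001, which opens with the coding first exon shown above, held 12.9% in naive B cells (12.3 to 13.5%) and 71.3% in plasma cells (71.0 to 71.6%). The transcript with the 1254-base coding sequence therefore led in plasma cells and that with 1035 bases in naive B cells. Txndc5-002 held 2.96% and 11.3%.

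Xbp1, the transcription factor of the unfolded protein response, kept its leading transcript. The gene was at 109 TPM (naive B) and 939 TPM (plasma). Xbp1-201, whose 1116-base coding sequence is the longest, held 84.8% and 85.3% in naive B and plasma cells. Xbp1-001, with 804 coding bases, held 3.43% in naive B cells (2.92 to 3.98%) and 13.4% in plasma cells (13.2 to 13.7%). The transcripts also differ in both UTRs, so these shares are not a measure of the splicing by which Xbp1 is activated.

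The transcripts of Irf4 that differ by the 3 bases shown above stayed within 5 points. Irf4-001 held 60.8% and 65.7% in naive B and plasma cells, with the gene at 96.6 TPM (naive B) and 221 TPM (plasma). Zbtb20, a zinc finger regulator of long-lived plasma cells, had Zbtb20-001 at 96.3% and 36.9%. That transcript has a 3′ UTR of 23858 bases, and as a share of estimated counts its difference was -6.76 points. Of the 26 secretory and plasma cell genes compared, only Prdm1 and Zbtb20 (7.69%) were past 25 points, against 12.5% of all genes. The median distance of the list was 5.93 points against 10.1 over all genes.

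Among surface receptors of B cells, 2 of 27 genes (7.41%) were past 25 points, against 12.5% of all genes, and Cd37 was among them. In a list of this size that gap is a matter of few genes. Cd37-001, a transcript of a tetraspanin, held 49.8% and 88.1% of the gene TPM in naive B and plasma cells.

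Fcgr2b differed by less than 25 points. Fcgr2b-001, with the 141-base exon, held 72.6% in naive B cells (71.5 to 73.7%) and 89.4% in plasma cells (88.8 to 90.0%), and Fcgr2b-003, without it, 27.2% and 8.26%. The exon encodes part of the cytoplasmic tail, and the form without it is known from myeloid cells, whose markers summed to 144 TPM in the naive library and 1.97 in the plasma library. Their part in this difference was not tested. Ptprc encodes CD45, whose B220 form carries all variable exons. Ptprc-201, with 3876 coding bases, held 42.4% and 34.8% in naive B and plasma cells, and Ptprc-203, with 3393, 57.1% and 63.2%.

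Transcription factors of naive B cells had 2 of 24 genes (8.33%) past 25 points, against 12.5% of all genes. Runx1-201 held 84.5% and 28.0% of Runx1 TPM, and Runx1-204 0% and 54.7%, where 3 counts would have made a naive share of 0.311%. Runx1-204 has a 3′ UTR of 306 bases and Runx1-201 one of 4188. Cux1-205 held 13.2% and 39.8% of the TPM of Cux1, a homeodomain factor. Factors known to keep B cell identity stayed under 25 points. Ebf1-001 held 66.1% and 58.9%, Ikzf1-202 59.1% and 62.4% and Bach2-203 84.0% and 85.7% in naive B and plasma cells. Pax5-004 held 39.0% and 26.5% and Pax5-016 40.5% and 42.7%.

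**Figure D2:**
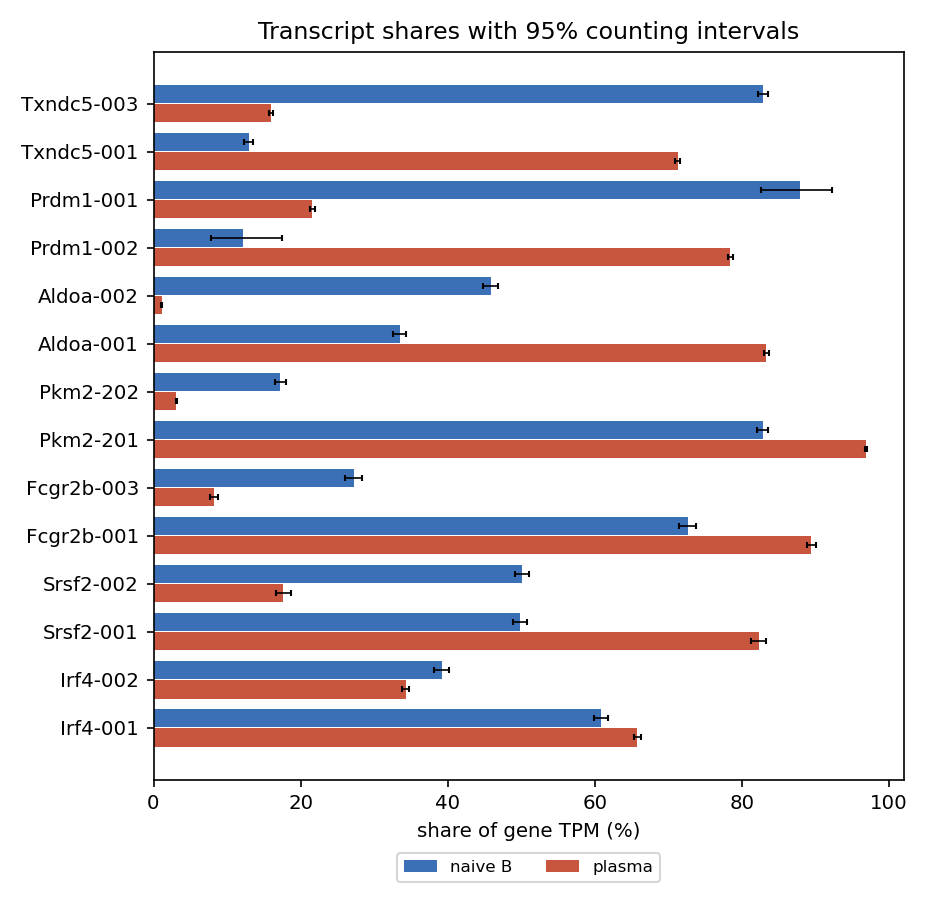
Bars give the share of gene TPM (%) of 14 transcripts of 7 genes in naive B cells (blue) and plasma cells (red), with 95% exact intervals for counting error. The leading transcript differed between the cell types in Txndc5, Prdm1, Aldoa and Srsf2, and was the same in Pkm2, Fcgr2b and Irf4.

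In glycolysis, 2 of 11 genes (18.2%) were past 25 points, against 12.5% of all genes. Aldoa encodes an aldolase. Aldoa-002 held 45.8% in naive B cells (44.8 to 46.8%) and 1.10% in plasma cells (1.03 to 1.18%), and Aldoa-001 held 33.4% in naive B cells (32.5 to 34.4%) and 83.3% in plasma cells (83.0 to 83.6%). Both have 1095 coding bases and differ in the 5′ UTR, of 181 and 231 bases. Hk1-202, a transcript of hexokinase, held 37.5% and 67.9%, and Hk1-013 23.2% and 0%, where 3 counts would have made a plasma share of 0.129%. Pkm2 was at 243 TPM (naive B) and 1098 TPM (plasma). Its M1-type transcript Pkm2-202 held 17.2% in naive B cells (16.5 to 17.9%) and 3.12% in plasma cells (3.01 to 3.23%) and its M2-type transcript Pkm2-201 the rest, so the M2 type led in both cell types.

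Cell cycle genes had 5 of 22 (22.7%) past 25 points, against 12.5% of all genes: Ccnd3, Cdkn1b, E2f1, Cdk2 and Aurka. The median distance of the list was 17.5 points, against 10.1 over all genes. E2f1 and Aurka rest on 365 and 247 naive estimated counts. In the group of genes with the lowest counts, 21.1% were past 25 points. Ccnd3, a G1 cyclin, had Ccnd3-202 at 51.5% and 1.89% in naive B and plasma cells and Ccnd3-201 at 48.5% and 98.1%. They share a coding length of 879 bases. Cdkn1b encodes the cell cycle inhibitor p27. Cdkn1b-001, with a 3′ UTR of 3439 bases, held 77.4% in naive B cells (76.1 to 78.6%) and 32.0% in plasma cells (30.6 to 33.5%). Cdkn1b-002, with the same coding length and a 3′ UTR of 1280 bases, held 22.6% and 68.0%. Both start and end at the same bases in GENCODE M21, with 2 and 3 exons. They thus differ by splicing and not in their 3′ end. E2f1-001, of a factor that drives entry into S phase, held 9.47% and 46.4%. Bad was the one of 7 Bcl2 family genes past 25 points (14.3%, against 12.5% of all genes), with Bad-002 at 9.17% and 46.2%.

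Splicing factors more often had another leading transcript than a share past 25 points. Of 30 SR proteins, their kinases and spliceosome factors, 11 had another leading transcript (36.7%, against 14.1% of all genes). Among all compared genes with 5 or more transcripts, 21.9% had another one. In this list 2 were past 25 points (6.67%, against 12.5% of all genes), Luc7l3 and Srsf2. The 11 were Srsf1, Srsf2, Srsf5, Srsf9, Srsf11, Tra2b, Clk4, Son, U2af1l4, U2af2 and Luc7l3. Their largest share differences ranged from 7.88 points in Tra2b to 36.4 in Luc7l3. Luc7l3-003 held 51.0% and 18.5% and Luc7l3-002 10.5% and 46.9%, which have the same 1299-base coding length and 3′ UTRs of 1979 and 551 bases. Clk4, a kinase of SR proteins, had Clk4-004 at 37.3% and 12.6%, whereas Clk1-001 held 83.2% and 81.4% and Srsf3-002 86.4% and 81.2%. Of 31 hnRNP and other RNA-binding regulators, Hnrnpl (3.23%) was past 25 points and 5 had another leading transcript. The polypyrimidine tract binding protein gene Ptbp1 had Ptbp1-202 at 27.5% and 15.5%.

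**Figure D3:**
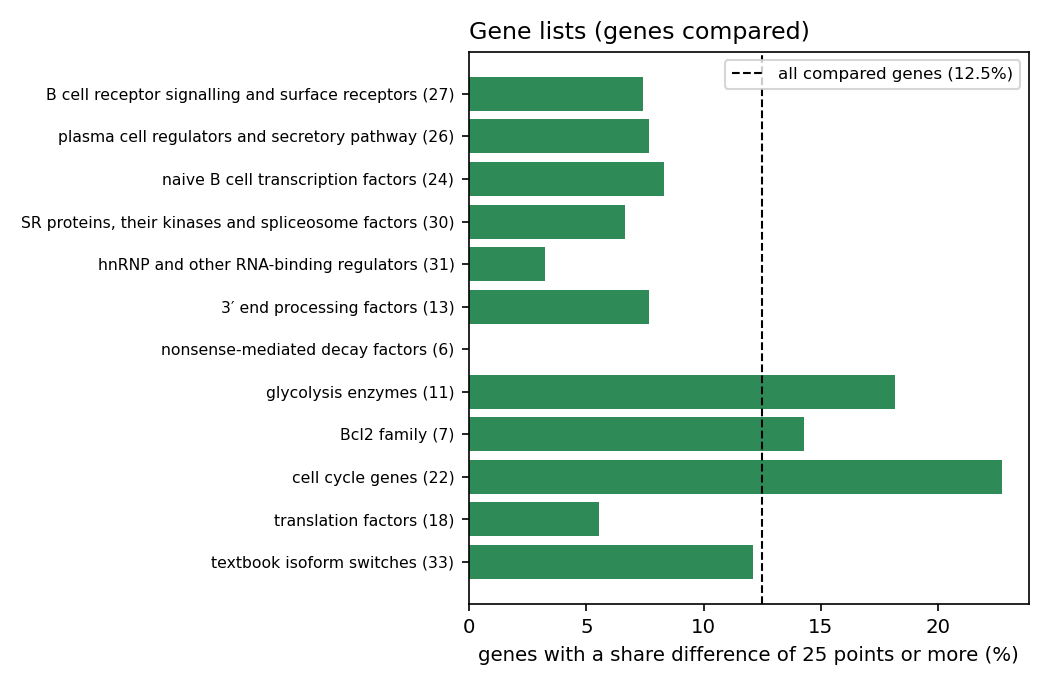
Bars give the percent of genes of each list with a share difference of 25 points or more, with the number of genes compared in brackets, and the dashed line gives 12.5% over all compared genes. Cell cycle genes were highest at 22.7%, and none of the 6 nonsense-mediated decay factors was past 25 points.

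Among the other lists, Pabpn1 was the one of 13 3′ end processing factors past 25 points and Eif4a2 the one of 18 translation factors. No nonsense-mediated decay factor was, with 6 compared. Of 33 genes with textbook isoform switches 4 were (12.1%): Mdm4, Numb, Cdc42 and Arhgef1. Mdm4 encodes an inhibitor of p53. Mdm4-202, with 1470 coding bases, held 43.0% and 7.72%, and Mdm4-203, with 384, 36.6% and 61.9%. Cdc42 encodes a small GTPase of cell polarity. Cdc42-201 held 58.7% and 29.6% and Cdc42-001 34.5% and 64.4%. Cdc42-201, with 444 coding bases, has no match by ID in GENCODE M21. Cdc42-202 held 6.18% and 5.98% and Cdc42-002 0.548% and 0%, both with the 576 coding bases of Cdc42-001. The list names genes, and the transcripts that differed need not be those of the known switch. Over all lists, 23 of 236 genes compared (9.75%) were past 25 points, under the 12.5% of all genes.

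Among genes with 1000 or more estimated counts in both libraries and another leading transcript, the largest distances were in Pigk and Lime1. Pigk encodes a subunit of the transamidase that attaches GPI anchors. Pigk-001 held 99.0% in naive B cells (98.3 to 99.4%) and 12.7% in plasma cells (11.6 to 13.9%), and Pigk-002 0% in naive B cells (0 to 0.444%) and 87.2% in plasma cells (86.0 to 88.3%). Their coding sequences are 1188 and 1329 bases and their 3′ UTRs 3386 and 410 bases. Lime1 encodes an adaptor that binds Lck. Lime1-001 held 90.0% and 8.97% and Lime1-002 0% and 79.1%, with 0.326% the naive share that 3 counts would have made. Chtop, listed as 2500003M10Rik and known for a part in mRNA export, had 2500003M10Rik-004 at 65.8% and 13.3% and 2500003M10Rik-001 at 6.21% and 71.9%.

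Other genes of this group encode membrane and signalling proteins. Notch1-203 held 99.1% and 30.9% of the TPM of a receptor gene, and Notch1-202 0.920% and 56.4%. Traf1 encodes an adaptor of TNF receptors. Traf1-002 held 57.3% and 4.88% and Traf1-201 12.6% and 78.8%, with the same 1230 coding bases and 5′ UTRs of 222 and 126 bases. Gngt2, a G protein gamma subunit, had Gngt2-004 at 33.6% and 6.34% and Gngt2-002 at 18.9% and 46.0%. Rab43-201, of a small GTPase of membrane traffic, held 88.0% and 24.7% and Rab43-001 5.25% and 71.4%. Yipf4-202 held 86.7% and 17.0% and Yipf4-201 13.3% and 83.0%. Nrros, listed as Lrrc33, had Lrrc33-004 at 47.6% and 4.40% and Lrrc33-003 at 24.1% and 67.6%. The other members were Gse1, with Gse1-002 at 100% and 31.9%, Rexo4, with Rexo4-201 at 87.2% and 25.1%, and Ssbp1, the mitochondrial single-strand DNA binding protein, with Ssbp1-003 at 68.1% and 15.2%.

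3′ UTRs were shorter in plasma cells in more genes than they were longer. The share-weighted 3′ UTR length of a gene, its mean 3′ UTR length weighted by transcript shares, was shorter in plasma by 200 bases or more in 700 of 6004 coding genes (11.7%) and longer in 169 (2.81%). At 500 bases the numbers were 245 and 31, and at 1 base 2817 and 1845. The median over genes was 906 bases in the naive and 864 in the plasma library. The share-weighted mean took in every transcript with a named coding sequence. That includes transcripts of the nonsense-mediated decay class (the decay class, described below), with all bases after their early stop. The 3′ UTR and decay-class results therefore overlap, and the overlap was not counted. Slc25a3 and Hnrnpl lost decay-class share, with -406 and -256 bases, and Arfip2 gained it, with 302. A shorter 3′ UTR can also come from splicing, as in Cdkn1b. By the share-weighted length of whole transcripts, 2954 genes were shorter and 2543 longer in plasma by 1 base or more, and the median log2 ratio was 0 to 2 decimals. The excess of shorter 3′ UTRs was present in all 5 groups by gene counts, at 12.5% against 4.65% in the lowest and 9.83% against 1.5% in the highest. It was also present among genes 2-fold or more higher in plasma (105 shorter, 20 longer), 2-fold or more lower (97 and 38) and between (498 and 111).

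**Figure D4:**
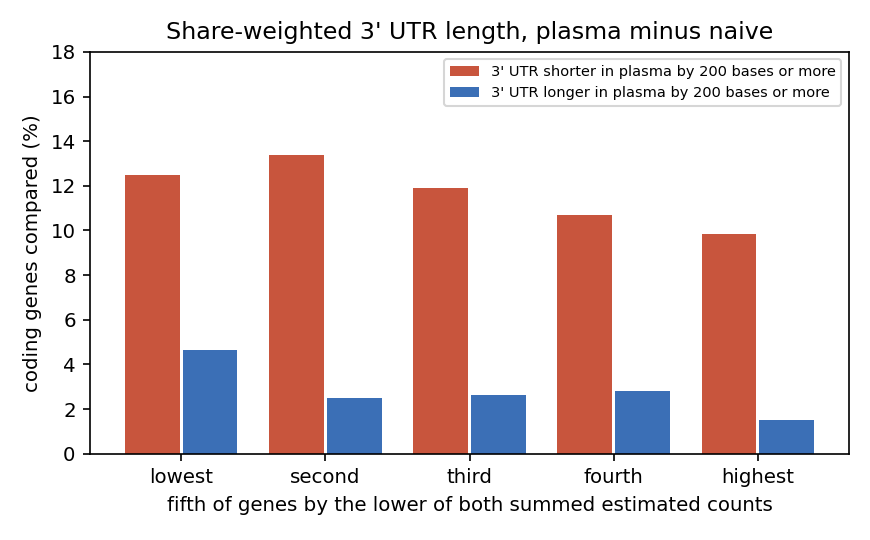
Bars give the percent of coding genes whose share-weighted 3′ UTR was shorter (red) or longer (blue) in plasma by 200 bases or more, for 5 equal groups of genes by the lower of the summed estimated counts. Red exceeded blue in all 5 groups.

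In some genes the gaining and losing transcripts began their last exon at the same base and ended it more than 50 bases apart. Of 90 such genes past 25 points, the gaining transcript was the shorter in 64 and the longer in 26. Among 738 such genes under 25 points it was the shorter in 428 and the longer in 310. The following examples were chosen after their values were seen. Helz, a gene of an RNA helicase family, had Helz-002 with a 3′ UTR of 7107 bases at 61.6% and 17.0%, and Helz-201 with one of 224 bases at 30.4% and 60.8%. Its share-weighted 3′ UTR was 4484 bases in the naive and 1396 in the plasma library. Yipf6-001, with 4029 bases, held 56.6% and 16.4%, and Yipf6-002, with 143 bases and the same coding length, 43.4% and 83.6%. Golga3, of a Golgi protein, had Golga3-001 with 3391 bases at 54.3% and 25.4%. Derl2, of a factor in the degradation of endoplasmic reticulum proteins, had Derl2-001 with 2879 bases at 51.7% and 16.4% and Derl2-201 with 388 bases at 46.1% and 78.7%. In the other direction, Plek-001, with a 3′ UTR of 2944 bases, held 43.3% and 72.9%, and Plek-002, with 2686, 56.2% and 26.5%.

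By list, the 3′ UTR was shorter in plasma by 200 bases or more in 7 of 31 RNA-binding regulators (22.6%), 6 of 24 naive B cell transcription factors (25%), 5 of 30 SR proteins and spliceosome factors (16.7%) and 4 of 25 secretory and plasma cell genes (16.0%), against 11.7% of all coding genes. It was longer by as much in 0 genes of these lists, against 2.81% of all genes, a share at which lists of this size hold few or no such genes. The 6 transcription factors included Runx1, Tcf4, Bach2 and Ebf1. Hnrnpl, among the RNA-binding regulators, and U2af1l4, among the spliceosome factors, also lost decay-class share, as given below. Of 22 cell cycle genes 2 were shorter and 0 longer, and of 7 Bcl2 family genes 1 and 0. The numbers were closer to each other in other lists: of 13 3′ end processing factors 1 was shorter and 1 longer, of 11 glycolysis enzymes 0 and 1, and of 33 textbook switches 2 and 1. In B cell surface receptor, nonsense-mediated decay factor and translation factor genes no 3′ UTR differed by 200 bases.

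Transcripts with a premature stop held a smaller share in plasma cells in more genes than a larger one. Transcript classes came from GENCODE M21, for transcripts with the same ID and length, and 1245 compared genes had a transcript of the nonsense-mediated decay class. Its median share was 13.1% in the naive and 9.15% in the plasma library. It was lower in plasma by 10 points or more in 236 genes (19%) and higher in 112 (9%), and by 25 points or more lower in 45 (3.61%) and higher in 27 (2.17%). By any amount it was lower in 684 genes (54.9%) and higher in 436 (35.0%), and the median difference was -0.67 points.

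The 5 genes with the largest loss among those with 1000 or more counts in both libraries were Ndufb8, Ndufa7, Slc25a3, Tbce and Ifi35. Ndufb8, of complex I, had 58.4% and 4.32% of its TPM in this class in naive B and plasma cells. Ndufa7 had 76.7% and 22.7%, all in Ndufa7-006, which lacks the 50-base exon shown above and has 123 rather than 342 coding bases. Ndufb8 was at 86.1 TPM (naive B) and 126 TPM (plasma) and Ndufa7 at 122 TPM (naive B) and 161 TPM (plasma). Their log2 ratios after centring were 1.74 and 1.60. Slc25a3, the mitochondrial phosphate carrier, had 60.8% and 15.3%. Tbce, a tubulin folding cofactor, had 85.4% and 43.4%, and Ifi35, an interferon-induced gene, 48.2% and 11.7%.

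The 5 largest gains were led by Eif4a2, an RNA helicase of translation initiation, with 18.9% and 68.3%. In it, Eif4a2-003 held 9.53% in naive B cells (9.17 to 9.90%) and 39.9% in plasma cells (38.9 to 40.9%) and Eif4a2-002 held 59.3% in naive B cells (58.8 to 59.9%) and 31.5% in plasma cells (30.6 to 32.4%), so a decay-class transcript led in the plasma library and a coding one in the naive library. The gene was at 620.3 TPM (naive B) and 115 TPM (plasma). Arfip2, which binds small GTPases, had 36.3% and 73.0%, Dtnb, a dystrobrevin, 21.8% and 56.2%, and Tmem234, listed as 2510006D16Rik, 35.5% and 65.7%. Dnajc1, a chaperone of the endoplasmic reticulum membrane, had 2.09% and 31.6%.

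Of 13 SR proteins, their kinases and spliceosome factors with a decay-class transcript, 9 had a lower share in plasma cells and 4 a higher one, against 54.9% lower and 35.0% higher over all genes of the class. By 10 points or more 4 were lower and 1 higher, against 19% and 9%. Srsf2 had 50.1% and 17.6%, in Srsf2-002 almost alone, which held 50.1% in naive B cells (49.1 to 51.1%) and 17.6% in plasma cells (16.7 to 18.7%). Srsf2-001, with the same coding length, held 49.8% and 82.3%. U2af1l4, a homologue of a splice site factor, had 81.5% and 26.0%, and Luc7l, in the other direction, 35.1% and 58.7%. Of 10 hnRNP and other RNA-binding regulators, 7 were lower and 3 higher, against the same 54.9% and 35.0%, and 3 and 2 by 10 points or more. Hnrnpl had 43.9% and 18.6%, a difference of -23.3 points as a share of estimated counts, and Hnrpdl 17.8% and 39.7%. The gene levels of Srsf2 were 306 TPM (naive B) and 106 TPM (plasma), a log2 ratio of -0.33 after centring.

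The retained intron class held less in plasma cells in most of the few genes that have it in these tables. GENCODE M21 assigns the class, and the deposited names give a coding sequence to 100 of its 139 transcripts. These are few of the 24524 transcripts compared, and 55414 of all 61112 deposited names give a coding sequence. Retained introns outside the deposited transcripts were not measured, so the class is no general measure of intron retention. Of 101 genes, 79 were lower and 19 higher, and the median share was 11.2% in the naive and 3.65% in the plasma library. By 10 points or more, 25 (24.8%) were lower and 5 (4.95%) higher, and by 25 points or more 5 (4.95%) were lower and 0 higher. Gas5, a noncoding RNA that hosts small nucleolar RNAs, had 83.5% and 16.2%. Gas5-001, a spliced form, held 16.0% in naive B cells (15.2 to 16.8%) and 66.8% in plasma cells (65.9 to 67.8%), and Gas5-017, of the retained intron class, 22.8% and 6.60%. Ing4, a chromatin reader, had 49.9% and 15.9%, Cc2d1b 28.2% and 8.23% and Pgam5, a mitochondrial phosphatase, 22.3% and 4.04%. Among SR genes, Srsf4 had 22.2% and 10.2% and Srsf11 13.3% and 5.07%. The largest gain among well-covered genes was in Ufm1, a ubiquitin-like modifier, with 44.2% and 60.5%.

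**Figure D5:**
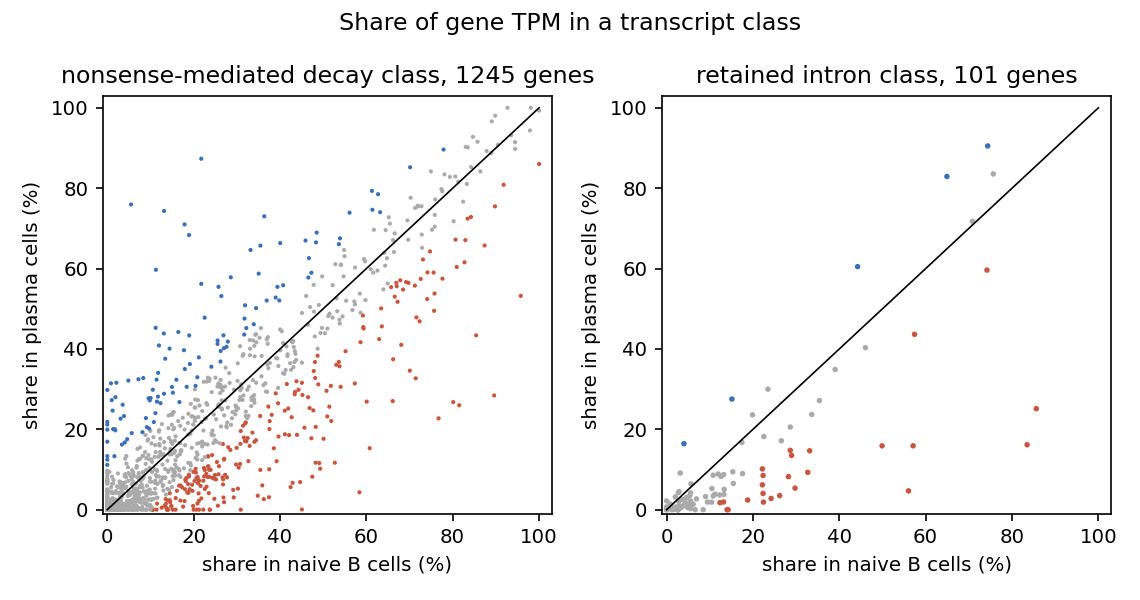
Each point is a gene, with the share of its TPM (%) in transcripts of the nonsense-mediated decay class (left) or the retained intron class (right), naive B cells on the x axis and plasma cells on the y axis. Red marks a share lower in plasma by 10 points or more (236 and 25 genes), blue one higher by as much (112 and 5), and the line marks equal shares.

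The processed transcript class holds transcripts to which GENCODE M21 assigns no coding sequence and no retained intron. The deposited names, from another annotation, give a coding sequence to 232 of its 321 transcripts, among them the class members of all 4 genes named here. The class was lower in plasma by 10 points or more in 23 of 221 genes (10.4%) and higher in 10 (4.52%), and by 25 points or more lower in 5 (2.26%) and higher in 0. Its median difference was -0.01 points. Lmbr1l had 72.5% and 17.9% of its TPM in this class, and Sec11a, a subunit of the signal peptidase, 38.8% and 15.5%. Ddx5, an RNA helicase, had 21.7% and 6.57%. H2-Ob, an MHC class II subunit, had 20.9% and 43.4% in the other direction, with the gene at 1107 TPM (naive B) and 107 TPM (plasma).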

How the data were processed

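RNA-seq of 1 naive B cell and 1 plasma cell library was used, grouped by title. The deposited tables give, per the file headers, for each transcript the estimated count and the TPM that the authors obtained with kallisto, and its length and effective length. The effective length was the same in both libraries, and it was the length minus 49 bases in 99.8% of transcripts. All TPM shares rest on these effective lengths, which were not checked. The submitters' processing notes name kallisto and, for the series, the build mm9. For kallisto, the version, strand setting and annotation release were not given in the sources used. The tables hold no coordinates.

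Transcripts were grouped by the gene ID in their names. Shares were computed from the deposited TPM, and the authors' estimated counts, not rounded to whole numbers, set the gene minimum of 200 and the 95% intervals. Gene levels were compared as log2(TPM + 1), centred on the median (-1.20). Classes and exons came from GENCODE M21 (GRCm38) by transcript ID: 83.9% of compared transcripts matched and 69.7% had the same length. A class was used only at the same length. That condition was set after a first pass that used any length, because some IDs had been remodelled; the deposited names hold no class. Starts and ends within 50 bases counted as the same, and shares within 0.01 points as equal.

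With 1 library per cell type no test was made. A call is a share difference of 25 points or more, a description with no error rate. The members and lists were chosen with earlier results of these data known. The 3′ UTR comparison, the structure comparison and its examples were added after values were seen. The genes named were a panel, up to 3 called members per list with the largest distance, the 15 genes with the largest distance among those with 1000 or more counts in both libraries and another leading transcript, and the 5 largest gains and losses per class; some of the last are summarised only. The values of 1 gene are not reported here. Python 3.11.15, pandas 2.3.3, numpy 2.4.6, scipy 1.17.1 and matplotlib 3.10.9 were used.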

Additional observations from a re-analysis of the deposited data

How the results depend on the processing

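No paired analysis was possible because there is 1 library per cell type and no test was made. Directions were checked for 1 transcript of each named gene, not for all genes. Of the 57 named genes past 25 points, none reversed under any alternative. A change of the count minimum could reverse none, since it leaves the shares within a gene as they were. The same holds for leaving out immunoglobulin and T cell receptor genes. Shares of estimated counts could reverse none in genes with only 1 other transcript, such as Prdm1 and Cdkn1b. Effective lengths were the same in both libraries. Annotated lengths, 49 bases above the effective ones in 99.8% of transcripts, left little room for a reversal. The lack of reversals is therefore little support for these directions. The cause of the movements below was not tested except where the alternative itself changes the number of genes. With a minimum of 50 estimated counts (7143 genes) the median distance was 10.6 points, and 8 genes gained 10 points of retained intron share. With a minimum of 1000 (3512 genes), 306 genes were past 25 points and 436 had another leading transcript, and the median distance was 9.22 points. There the decay class was lower by 10 points in 106 genes and higher in 55, and by 25 points in 15 and 9. The retained intron class was lower by 10 points in 9 genes and higher in 1, the processed transcript class lower in 7 and higher in 3, and 3′ UTRs were shorter by 200 bases in 376 genes and longer in 81. As shares of estimated counts, the median distance was 7.71 points, the median decay-class difference -0.21 points, the genes higher by 10 points 3 for retained introns and 3 for processed transcripts, and those with longer 3′ UTRs 74. With transcripts under 5% of the gene TPM left out, the median distance was 9.61 points and the median decay-class difference -3.27 points. At 10 and 50 points, 2867 and 114 genes passed. Another transcript led by 20 points or more in both libraries in 146 genes. Chosen after seeing the data were 500 bases (245 genes with shorter and 31 with longer 3′ UTRs), classes by ID at any length (8 genes with higher retained intron share, and 252 lower and 121 higher by 10 points for the decay class) and only transcripts with both UTRs named. The last left 4993 genes and gave a median distance of 8.73 points, 3 genes with higher retained intron share, and 12 lower and 3 higher for processed transcripts. Of 57 named genes whose share was past 25 points, 52 stayed past it as shares of estimated counts; Gng2, Hnrnpl, Rab22a, Slmo2 and Zbtb20 did not. With both UTRs required, 50 of 52 did, and Scrib and Sec11a did not. Depth limits the naive Prdm1 shares, which rest on 244 estimated counts.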
